A study of Homo sapiens with 5 samples.

Results

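The SR splicing factors described here are 10 genes: SRSF1, SRSF2, SRSF3, SRSF4, SRSF5, SRSF6, SRSF7, SRSF11, TRA2A and TRA2B. They were taken by name, and every transcript that the GENCODE 44 annotation of GRCh38 assigns to them was followed. The 10 genes were among 61220 with a matched transcript, and 115 of their 118 annotated transcripts were among the 227751 human transcripts of the tables. The study measured messenger RNA of NCI-H1975 and HCC827, established human lines derived from lung adenocarcinoma, by nanopore cDNA sequencing on a PromethION flow cell. NCI-H1975 RNA was labelled as carrying the synthetic spike-in transcripts called sequins in mix A, and HCC827 RNA as carrying mix B. The RNAs were combined by mass so that HCC827 made up 0, 25, 50, 75 or 100%, and the libraries, 1 for each mixture, are called by their ratio with NCI-H1975 first, from 100:0 (pure NCI-H1975) to 0:100 (pure HCC827). A single RNA preparation of each line went into the whole series, untreated beyond culture to near confluency and freezing, so every p-value below measures scatter about a trend between 2 preparations and not between cultures.

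SR proteins join an RNA recognition motif to a tail rich in arginine and serine. They bind enhancer sequences in exons, recruit the spliceosome to the neighbouring splice sites, and several also accompany the mature messenger RNA out of the nucleus. Many SR genes contain a poison exon, a cassette exon with an in-frame stop codon. When it is spliced in, the messenger RNA becomes a target of nonsense-mediated decay (NMD), a surveillance pathway that removes messages whose stop lies well upstream of the last exon junction, and SR proteins are known to promote inclusion of their own poison exons. In the annotation such transcripts are typed nonsense_mediated_decay, and transcripts that keep intron sequence and have no annotated coding region are typed retained_intron. A type is a property of the annotated structure, and the reads count steady-state RNA that was captured through its poly(A) tail, so neither measures decay itself.

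The stretch from the start of the poison exon to its stop codon is printed for 5 members because it carries the feature that separates these isoforms from the coding ones. Sequences are from GRCh38, 5′ to 3′ on the transcribed strand, with the stop codon in capitals. The SRSF3 exon of transcript SRSF3-203 lies between exons 3 and 4 of the MANE Select transcript (the annotation's reference transcript for a gene), is 456 bases long, and its printed part is chr6:36599821-36599854 on the plus strand. The exon of SRSF4-205 that holds the stop has 175 bases between MANE exons 1 and 2, printed as chr1:29166009-29166064 on the minus strand. The SRSF6-202 exon has 268 bases between MANE exons 2 and 3, printed as chr20:43459153-43459304 on the plus strand. The SRSF7-204 exon has 449 bases between MANE exons 3 and 4, printed as chr2:38749319-38749346 on the minus strand. The TRA2B-205 exon has 276 bases between MANE exons 1 and 2, printed as chr3:185931772-185931852 on the minus strand.
SRSF3: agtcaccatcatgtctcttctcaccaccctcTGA
SRSF4: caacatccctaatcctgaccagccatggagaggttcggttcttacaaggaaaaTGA
SRSF6: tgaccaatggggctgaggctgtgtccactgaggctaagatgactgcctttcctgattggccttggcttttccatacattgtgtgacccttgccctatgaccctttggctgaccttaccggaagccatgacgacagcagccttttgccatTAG
SRSF7: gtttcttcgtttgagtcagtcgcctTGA
TRA2B: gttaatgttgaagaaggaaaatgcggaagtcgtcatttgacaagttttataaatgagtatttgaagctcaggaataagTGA
Counting only codons that lie wholly within the exon, the stop was reached soonest in SRSF7, as the 9th. SRSF3 followed at the 11th and SRSF4 at the 18th, and SRSF6 was latest among these 5 at the 50th. After the stop the exon ran on for 422 bases in SRSF3, 421 in SRSF7, 195 in TRA2B, 119 in SRSF4 and 116 in SRSF6.

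The poison exon of TRA2A (TRA2A-211, chr7:23522132-23522432, minus strand, 301 bases) sits in the same place as that of TRA2B, between MANE exons 1 and 2. TRA2A and TRA2B are the human relatives of the fly splicing regulator transformer-2. The windows around the splice acceptor of both exons are printed because they show how alike the pair is, with the acceptor dinucleotide in capitals. They cover chr7:23522427-23522452 for TRA2A and chr3:185931847-185931872 for TRA2B, both on the minus strand.
TRA2A acceptor: aatgttctttttccattaAGgttaat
TRA2B acceptor: cctgttctttttctattaAGgttaat
Of these 26 bases 23 were identical, as were the first 9 bases of the exons. The TRA2A exon reached its stop as the 48th codon and the TRA2B exon as the 27th. Because the TRA2A exon is untranslated in another transcript of the gene, only the last 30 bases up to its stop codon, again in capitals, are printed (chr7:23522289-23522318, minus strand).
TRA2A stop: aaaaaattgaacagaagattggtcagaTAG
 All 6 poison exons examined were flanked by AG and GT. TRA2 proteins are known to bind runs of GAA, so GAA was counted on the transcribed strand with overlapping matches allowed. The TRA2A exon held 32 GAA, or 10.6 per 100 bases, and the TRA2B exon 28, or 10.1 per 100 bases. Internal exons of MANE Select transcripts within 20% of the same length had a median of 1.95 and 1.98 per 100 bases. Only 0.0433% of 6921 such exons were at least as dense as the TRA2A exon and 0.0406% of 9848 as the TRA2B exon. G and C made up 30.2% of the TRA2A exon and 32.6% of the TRA2B exon, and the compared exons were not matched for base composition. The other poison exons were sparser in GAA, with 2.86 per 100 bases in SRSF4, 1.56 in SRSF7, 0.746 in SRSF6 and 0.658 in SRSF3. Those densities were reached by 32.5%, 61.1%, 86.5% and 87.3% of exons of like length. At least 1 GAA was present in 94.2% or more of the exons in each of these comparisons. GAA matches describe the letters of the exons and are no evidence of binding.

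The libraries held between 2932250 and 4058751 reads, and the members together 15986. Sequin reads fell from 5475 in the 100:0 library to 1269 at 25:75, and the 0:100 library, whose label names mix B, had 0, which allows a share of up to 9.70e-05% of its reads. The read-weighted mean transcript length over all genes fell along the series, from 2572 bases in the 100:0 library to 2169 in the 0:100 library (p = 0.0167, exact permutation test over 120 orders, two-sided, the smallest p this design allows), and that of the members ran from 2849 to 2776 bases. Epithelial markers (KRT7, KRT8, KRT18, KRT19, EPCAM and CDH1) were present in every library, with a summed level of 5575 to 15794 CPM (reads scaled to a common library size). Of the 4 leukocyte markers, PTPRC and CD3E were at 0 reads throughout, CD79A had 75 reads in all, and CD68 stood at 56.6 CPM in the 100:0 library and 94.4 in the 0:100 library and rose, for a summed level of 62.5 to 97.2 CPM. The 3 endothelial markers summed to at most 1.40 CPM, and among fibroblast markers COL1A1 was at 157 CPM in the 100:0 library and 7.06 in the 0:100 library while DCN was at 0. Toward HCC827, 5 of 6 epithelial and 3 of 3 lung lineage markers rose and both collagens tested fell (edgeR slope, adjusted p under 0.05), and their part in the results below was not tested.

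Levels were compared first, to ask whether the RNAs of the 2 lines differ in the amount of each factor. Gene levels are CPM scaled by TMM, edgeR's normalisation, and a slope is the log2 change that edgeR fits between 0 and 100% HCC827. Slopes were called at an adjusted p under 0.05 in edgeR's quasi-likelihood test, with Benjamini-Hochberg adjustment over all genes. Of 13492 genes 45.8% were called, 23.5% rising and 22.3% falling. Of the 10 members 2 passed, SRSF1 and TRA2A, and both fell toward HCC827. The share of members called was thus below that of all genes, and the median slope of the members was -0.15 against -0.035 over all genes. In bulk RNA of this kind, fewer cells with a transcript and less RNA per cell cannot be told apart.

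SRSF1 (chr17:58000919-58007346, minus strand), a factor of both constitutive and alternative splicing that is known as an oncoprotein when overproduced, stood at 134, 145, 127, 115 and 100 CPM from the 100:0 to the 0:100 library. It was highest at 75:25 and lowest in pure HCC827, with 454, 626, 494, 329 and 270 reads. A same-strand gene model without a symbol overlaps it and held 71 further reads, which the counting could have split. Its slope was -0.46 ± 0.14 (SE, 5 libraries), with a 95% interval of -0.76 to -0.16 and an adjusted p of 0.0153 (edgeR). TRA2A (chr7:23504780-23532041, minus strand) stood at 44.5, 48.4, 44.4, 39.8 and 27.9 CPM, from 151, 209, 173, 114 and 75 reads. The 0:100 library was the lowest by the widest step of the series. Its slope was -0.60 ± 0.22 (SE, 5 libraries), with a 95% interval of -1.07 to -0.14 and an adjusted p of 0.0362 (edgeR). Without the 0:100 library neither gene passed, with slopes of -0.34 (adjusted p = 0.169) for SRSF1 and -0.24 (adjusted p = 0.479) for TRA2A by the same edgeR test. Without the 100:0 library both passed, and the slope of TRA2A was -0.95. Without the 75:25 library SRSF1 had an adjusted p of 0.0513 and TRA2A of 0.0934, and SRSF6 passed at 0.0499 (edgeR).

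The other 8 members did not pass with this scaling and filter. SRSF3 (chr6:36594353-36605600, plus strand), the shortest SR protein and an adaptor for messenger RNA export, stood at 152, 155, 140, 143 and 122 CPM. Its slope was -0.30 ± 0.13 with an adjusted p of 0.0711 (edgeR). SRSF6 (chr20:43457893-43466046, plus strand), a regulator of alternative exons, stood at 66.3, 54.2, 60.3, 55.9 and 46.5 CPM, with a slope of -0.38 ± 0.17 and an adjusted p of 0.0870 (edgeR). For both genes the 0:100 library was the lowest, and the intervals of the slope (-0.57 to -0.02 for SRSF3, -0.75 to -0.01 for SRSF6) lay below 0 before adjustment over all genes.

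SRSF4 (chr1:29147743-29181900, minus strand), a long SR protein with an extended arginine and serine tail, stood at 37.4, 45.2, 39.0, 45.4 and 50.6 CPM, lowest in pure NCI-H1975 and highest in pure HCC827. Its slope was 0.34 ± 0.19 with an adjusted p of 0.154 (edgeR), and -0.068 when library totals replaced TMM. SRSF2 (chr17:76734115-76737333, minus strand), which stays in the nucleus and marks nuclear speckles, was lower in both pure libraries than in the mixtures, at 76.6, 85.2, 95.7, 91.2 and 80.7 CPM. SRSF2 shares 1469 bases with MFSD11 on the opposite strand, which held 167 reads, and the sources used here do not say whether strand was used in counting.

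The remaining 4 members had intervals that spanned 0. SRSF5 (chr14:69726900-69772005, plus strand), first found as a growth-induced gene of regenerating liver, ran from 124 CPM at 100:0 to 111 at 0:100 with a slope of -0.16 ± 0.12. SRSF7 (chr2:38743599-38751494, minus strand), which like SRSF3 binds the export receptor, was the only member whose 5 levels ran in order, at 91.0, 84.8, 83.7, 83.5 and 81.1 CPM, with a slope of -0.14 ± 0.13. SRSF11 (chr1:70205682-70253052, plus strand), a factor of short neuronal exons, lay between 156 and 168 CPM. Its slope was 0.01 ± 0.12, with an interval of -0.24 to 0.27. TRA2B (chr3:185914558-185938103, minus strand) lay between 64.9 and 70.4 CPM with a slope of -0.10 ± 0.14.

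**Figure D1:**
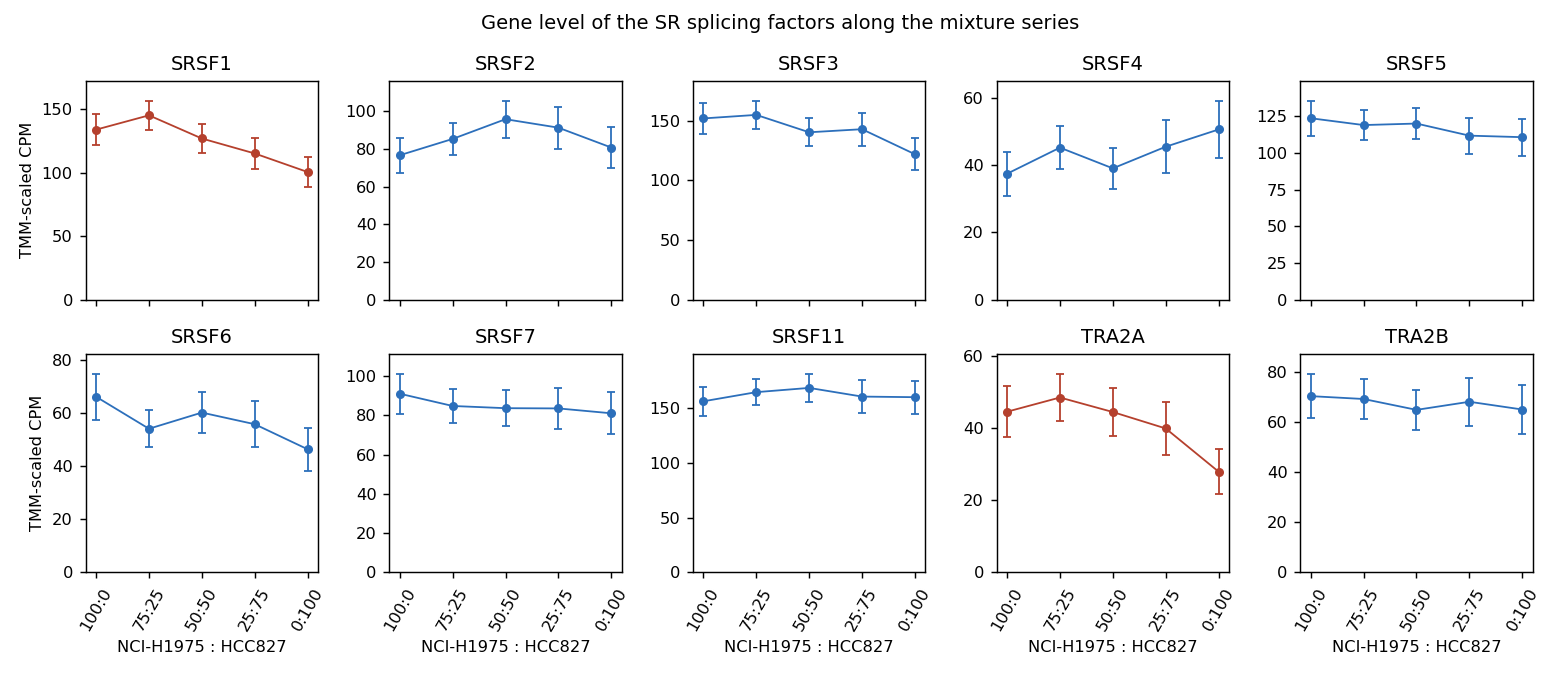
Level of each member in TMM-scaled CPM (vertical axis, from 0, its own scale in each panel) against the NCI-H1975 to HCC827 ratio of the library. Points are single libraries, bars are 95% counting intervals from the square root of the reads, and SRSF1 and TRA2A, drawn in red, are the 2 members past the threshold, each lowest in the 0:100 library.

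**Figure D2:**
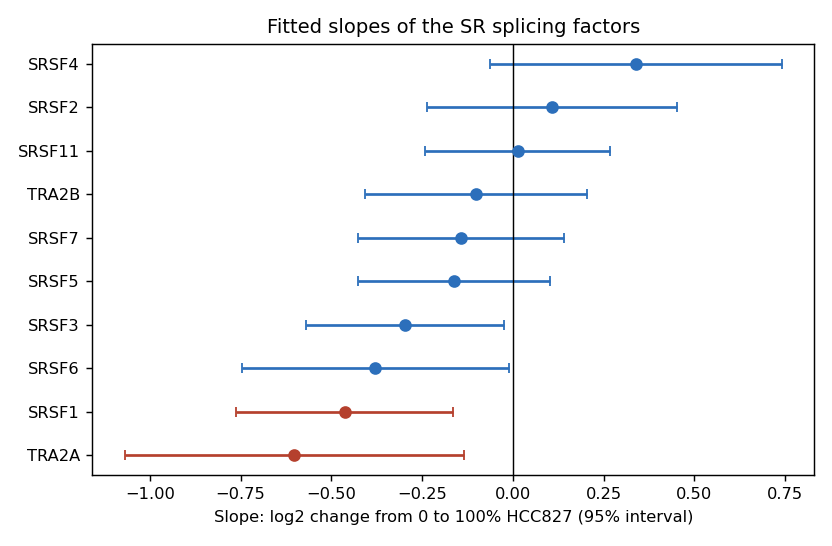
Fitted slope of each member (log2 change from 0 to 100% HCC827) with its 95% interval from edgeR, before adjustment over genes. The slopes run from -0.60 for TRA2A to 0.34 for SRSF4, and the 2 members past the adjusted threshold are in red.

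The count depended on the scaling and the filter. With at least 10 reads required in every library 4 members passed, SRSF3 (slope -0.35, adjusted p = 0.0252, edgeR) and SRSF6 (-0.43, adjusted p = 0.0468, edgeR) as well as SRSF1 and TRA2A. With library totals in place of TMM, the median slope of all genes moved to -0.44, calls shifted to 26.3% rising from 51.3%, and 8 of 10 members were called as falling where 37.6% of all genes fell. Relative to the median of all genes, the slope of SRSF1 was -0.43 under both scalings. When the relation between slope and transcript length was removed, TRA2A passed and SRSF1 had a slope of -0.32 and an adjusted p of 0.0682 (edgeR). DESeq2's Wald test called SRSF1 (adjusted p = 0.0358) and gave TRA2A an adjusted p of 0.0873.

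The next question was how the reads of each factor divide between coding and unproductive transcript types, and whether that division differs between the lines. Over the 5 libraries, 7.29% of the members' reads fell on NMD transcripts, against 4.39% of the reads of all genes. Retained-intron transcripts took 16.1%, against 7.69%. Of the members' 1165 NMD reads 610 were SRSF7 reads. Only SRSF2, SRSF7, TRA2A and TRA2B had an NMD share above that of all genes. For retained introns only SRSF3, SRSF4, SRSF5, SRSF11 and TRA2B did. A further 10.0% of the members' reads lay on transcripts without a defined coding region, called other types here. The sum of both types was 24.0%, 22.6%, 22.9%, 24.8% and 23.5% of the members' reads along the series, with no order and a difference between the pure libraries of -0.527 percentage points (Newcombe 95% interval -2.79 to 1.77, counting error only). Over all genes NMD transcripts went from 4.61% at 100:0 to 4.27% at 0:100 (slope -0.368 points, p = 0.0333, exact permutation test, two-sided), and retained introns from 7.60% to 7.85% (p = 0.567 by the same exact test).

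The members differed widely among themselves in their unproductive types. SRSF7 had the highest NMD share. In the order of the series NMD transcripts took 39.5%, 42.3%, 40.5%, 44.4% and 43.6% of its reads, or 41.8% (Wilson 95% interval 39.3 to 44.4) of 1458 reads pooled, and the intervals of the 5 libraries overlapped. Among 11016 genes with at least 100 reads, whose median NMD share was 0, that share was above 97.3% of genes. Only 36.4% of those genes had any NMD read. The NMD reads of SRSF7 were spread over 6 transcripts that all cover a poison exon. SRSF7-204 led with 246 reads and SRSF7-205 had 147, and both hold the 449-base exon whose first bases are printed above. SRSF7-206 (73 reads) and SRSF7-208 (20 reads) keep a MANE intron and cover that exon only within a longer one. The most abundant coding transcript, SRSF7-201, had 322 reads. SRSF7-207, with a different stop-bearing exon of 69 bases between MANE exons 5 and 6, had 119.

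TRA2A followed, with NMD shares of 23.2%, 20.6%, 18.5%, 21.9% and 18.7% along the series and 20.6% (17.8 to 23.7) of 722 reads pooled. Of these 149 reads 146 were on TRA2A-211, which carries the GAA-rich exon. The same exon lies in the 5′ untranslated region of TRA2A-202, a transcript typed as coding with 119 reads. Counting by structure, the 4 transcripts that cover the exon, 2 of them with its exact ends, took 43.7%, 46.9%, 44.5%, 44.7% and 37.3% of TRA2A reads. The 0:100 library was the lowest, and the difference between the pure libraries was -6.38 percentage points, with a Newcombe interval of -19.2 to 7.29 that spans 0.

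In TRA2B, the close relative of TRA2A, retained-intron transcripts were the largest type. They held 51.0%, 49.8%, 45.8%, 50.3% and 54.9% of its reads along the series, 50.0% (47.2 to 52.9) of 1161 pooled. That share was above 97.8% of the 11016 genes, of which 47.8% had any retained-intron read. TRA2B-214 led with 333 reads, close to the 361 of the coding TRA2B-204, and 2339 of its 4141 bases lie in no coding transcript of the gene. The NMD transcript TRA2B-205, whose exon is printed above, held 84 reads, or 7.11%, 6.02%, 7.51%, 8.21% and 8.0% of the gene along the series. The retained-intron transcripts TRA2B-211 (65 reads) and TRA2B-213 (50 reads) and the further transcript TRA2B-209 (22 reads) also cover that exon. Of the 4 transcripts that cover it, 3 hold it with its exact ends. Together they took 19.0% of the gene pooled and between 15.7% and 21.1% in single libraries.

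SRSF3 resembled TRA2B in that retained introns outweighed the NMD type. Retained-intron transcripts took 32.8%, 31.5%, 34.6%, 36.9% and 30.8% of SRSF3 reads, led by SRSF3-205 with 417 reads, a single exon that keeps 2 MANE introns, and SRSF3-207 with 347. Its main coding transcript, SRSF3-202, had 1510. The NMD type took 5.04%, 3.44%, 3.29%, 1.22% and 3.05%, or 26, 23, 18, 5 and 10 reads, highest in pure NCI-H1975 and lowest at 25:75. Most of them, 77, were on SRSF3-203, which holds the poison exon. The interval of that exon also lies within longer exons of SRSF3-207 and SRSF3-201, which hold no cassette exon. With them and SRSF3-204, transcripts that cover a poison exon took 21.7%, 18.8%, 20.3%, 20.3% and 15.5%. Of these 483 reads 82 were on the NMD type. The 0:100 library was lower than the 100:0 library by 6.16 percentage points (Newcombe 95% interval of the difference -11.3 to -0.697, counting error only, 1 of 7 such differences and unadjusted).

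SRSF11 had no NMD read at all: 0 of 2785 reads, which allows a share of up to 0.108%, although 3 NMD transcripts of the gene are in the tables. Transcripts that the annotation places over its poison exons did have reads, and whether those reads reached the exons was not tested. Among these transcripts was SRSF11-214, of the retained-intron type, which has no cassette exon and contains the poison exons within longer exon sequence. That transcript had 78, 107, 95, 82 and 61 reads, or 14.7%, 15.1%, 14.5%, 17.9% and 14.2% of the gene. SRSF11-208, a transcript of no coding or decay type that the annotation also places over such an exon, had 37, 51, 41, 22 and 13 reads. Its length in the tables, 1035 bases, differs from the 1559 bases of GENCODE 44, so its structure in the count model may differ from the one used here.

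In SRSF5 the unproductive reads were nearly all retained introns, at 24.5%, 20.6%, 25.9%, 27.2% and 22.1% along the series. SRSF5-207, which keeps 2 MANE introns, led them with 221 reads, against 401 for the coding SRSF5-217. The NMD type held 23 of 2020 SRSF5 reads, all on SRSF5-211, which has its early stop without a cassette exon. SRSF4 retained-intron transcripts took 21.3%, 15.4%, 11.8%, 13.8% and 11.8% of its reads, from 27, 30, 18, 18 and 16 reads. The pure NCI-H1975 library was the highest, and the pure HCC827 library lay 9.50 percentage points lower (Newcombe interval -18.5 to -0.506), while the test of usage along the series gave a log2 change of -0.78 with an unadjusted p of 0.0772 and an adjusted p of 1.00 (edgeR). That change was -0.43 without the 100:0 library and -0.33 with the length relation removed. Of the 109 SRSF4 retained-intron reads 103 were on SRSF4-207, which also contains the exon printed above, and SRSF4-205, the NMD transcript itself, had 6.

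Like SRSF4, with 84.5% of its reads on coding transcripts, SRSF1 (79.0%), SRSF2 (83.4%) and SRSF6 were mostly coding in type. SRSF6 was the most coding of the members, with 98.2% of 979 reads on coding transcripts and 11 reads on SRSF6-202, which holds its poison exon. The NMD reads of SRSF1, 43 of 2173, lay on transcripts that have no cassette poison exon. SRSF1 had a second coding transcript, SRSF1-205, which keeps a MANE intron and held 796 reads next to the 902 of SRSF1-201. In SRSF2 the NMD type took 8.46%, 12.8%, 11.0%, 11.5% and 7.83% of reads, lower in both pure libraries than in the mixtures. SRSF2-208 carried 153 of these 157 reads. It ends at the same stop as the MANE transcript, and that stop becomes an early one because a further junction lies 105 bases after it.

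**Figure D3:**
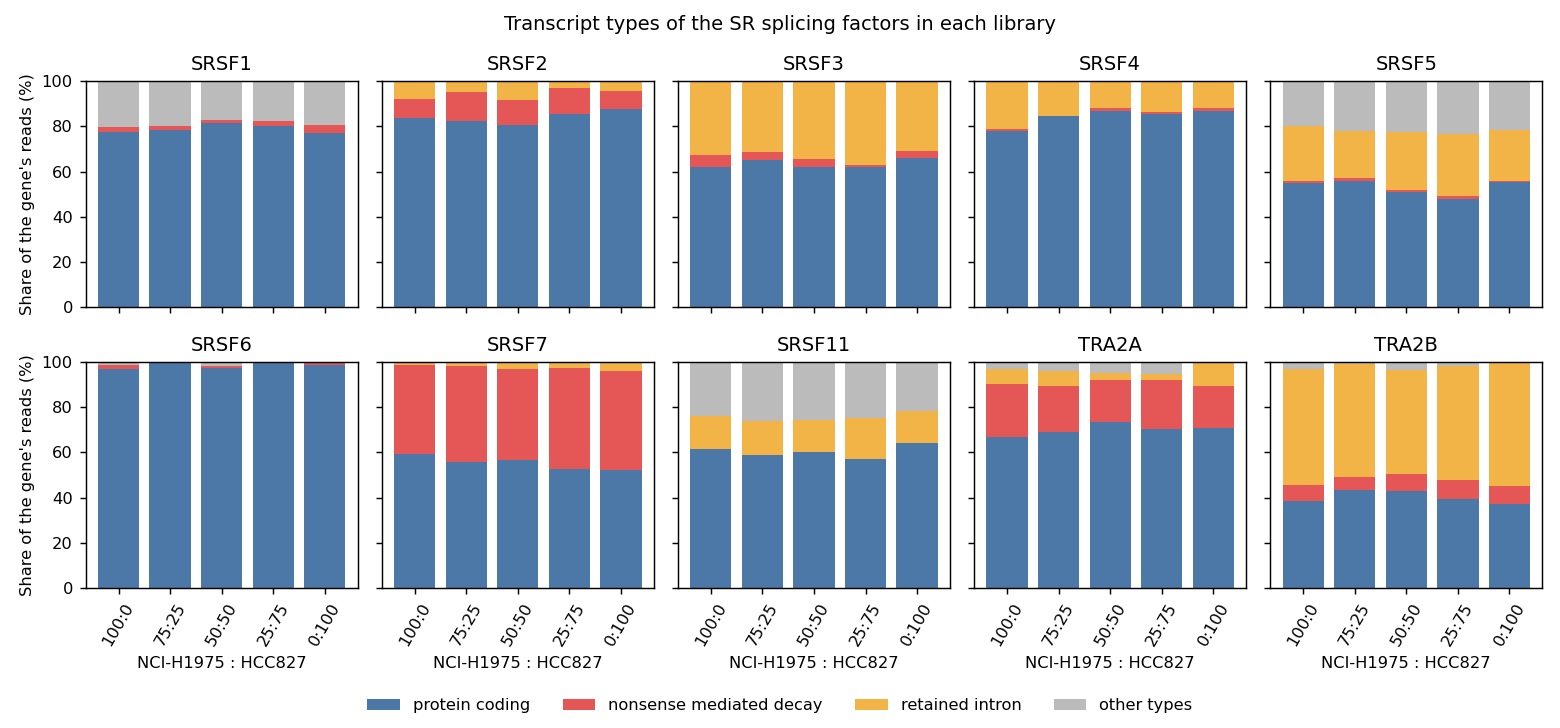
Share of each member's reads (vertical axis, percent) on coding, NMD, retained-intron and other transcript types in each library, from 100:0 (pure NCI-H1975) to 0:100 (pure HCC827). The NMD type is largest in SRSF7 (39.5% to 44.4%) and the retained-intron type in TRA2B (45.8% to 54.9%), in all 5 libraries.

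**Figure D4:**
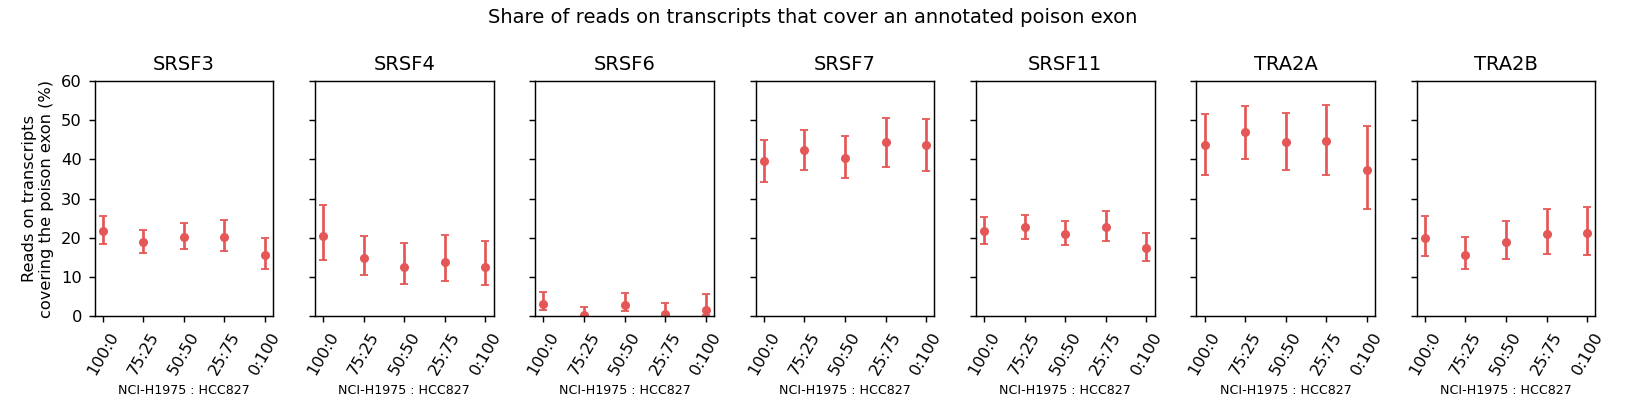
Share of reads on transcripts that cover an annotated poison exon, whatever their type (vertical axis, percent), for the 7 members that have one. Transcripts that contain the exon within a longer exon or a kept intron are counted. Points are single libraries and bars are Wilson 95% intervals, which cover counting error only. TRA2A (37.3% to 46.9%) and SRSF7 (39.5% to 44.4%) are the highest and SRSF6 (0.427% to 3.11%) the lowest.

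The type of a transcript and its structure gave different pictures of the same exons. In SRSF7 all 610 reads on transcripts that cover a poison exon were on NMD transcripts. In the other members with such an exon the NMD type held 11 of 18 reads for SRSF6, 146 of 320 for TRA2A, 84 of 221 for TRA2B, 82 of 483 for SRSF3, 6 of 109 for SRSF4 and 0 of 594 for SRSF11. Of the SRSF11 reads 164 were on SRSF11-208, whose structure is uncertain. Reads were assigned to annotated transcripts by the authors, so a truncated read or one that fits several transcripts may have been placed on either kind.

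The coding reads were also divided differently from member to member. SRSF6 and SRSF4 each had 1 dominant transcript, SRSF6-201 with 83.7% of the gene's reads and SRSF4-201 with 74.3%, and SRSF3-202 held 61.2%. SRSF2 reads lay mainly on SRSF2-203 (829 reads, 56.1%), which keeps a MANE intron and is still typed as coding, and on the spliced SRSF2-202 (305 reads, 20.6%). In SRSF5 the reads were spread widely, and pooled over the libraries the coding SRSF5-217 held 401 reads, or 19.9%. The intron-keeping SRSF5-215, typed as having no defined coding region, held 360, and the coding SRSF5-203 and SRSF5-201 held 243 and 216. SRSF11 was spread over SRSF11-202 (702 reads), SRSF11-201 (498), SRSF11-203 (323) and SRSF11-204 (150). TRA2A-201 held 34.8% of TRA2A reads and TRA2B-204 31.1% of TRA2B reads. Those shares were below the 44.3% of TRA2A reads on transcripts that cover the poison exon and the 50.0% of TRA2B reads on retained-intron transcripts.

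How firmly a read can be placed depends on the sequence that a transcript does not share. Such bases were counted outside the gene's other coding transcripts only, so NMD and retained-intron transcripts can share them, as SRSF7-204 and SRSF7-205 do. The leading NMD transcripts with 1 cassette exon had 456 in SRSF3-203, 449 in SRSF7-204, 276 in TRA2B-205 and 268 in SRSF6-202. Each number equals the length of the poison exon. TRA2A-211 had 0, because TRA2A-202 holds the same exon, so the TRA2A reads on these transcripts are set apart only by other exons or junctions. SRSF2-208 also had 0 and holds no base of its own. SRSF4-205 and SRSF5-211, with few reads, had 723 and 822, and SRSF1-206 had 37. Among the leading retained-intron transcripts the number ran from 91 in SRSF2-206, 297 in SRSF7-211 and 554 in TRA2A-209 to 1175 in SRSF5-207, 1433 in SRSF3-205, 1698 in SRSF11-214, 2339 in TRA2B-214 and 6193 in SRSF4-207.

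Usage was then tested along the series, as the log2 change of a type relative to the rest of its gene (diffSpliceDGE of edgeR). Over all genes 0.0812% of 9847 types passed, so the test made very few calls. Of the 25 types of members that could be tested 0 passed, also in limma-voom, and 1 had an unadjusted p under 0.05, next to 2.63% of all types tested. That was the NMD type of SRSF3, with a log2 change of -1.17, an unadjusted p of 0.0266 and an adjusted p of 1.00 (edgeR). With 1 library left out that change ran from -2.06, without 0:100, to -0.70, without 25:75, and was -0.80 without 100:0. Of the 17 pairs of a member with an NMD or retained-intron type that had a read, 16 had Wilson intervals that shared a value in all 5 libraries, the exception being SRSF3 NMD. In 15 the interval of the difference between the pure libraries spanned 0. The exceptions were SRSF4 retained introns, given above, and SRSF7 retained introns, which were 1.29% at 100:0 and 4.13% at 0:100, from 4 and 9 reads. For SRSF7 NMD the difference was 4.10 points (interval -4.38 to 12.6), and for TRA2B retained introns 3.81 points (-5.89 to 13.4), so differences of that size were not detectable at this depth.

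Single transcripts were tested for level and for usage. Of the members' 115 transcripts, 104 had a read and 58 had the 10 reads in at least 2 libraries that the tests required: 30 coding, 8 NMD, 13 retained-intron and 7 of other types. In level, 4 of the 58 passed and all 4 fell toward HCC827, where 33.6% of 31758 transcripts passed and 16.1% fell. None of the 8 NMD or 13 retained-intron transcripts was among them. For SRSF1 they were SRSF1-201 and SRSF1-203. SRSF1-201, the MANE transcript, had 192, 248, 212, 145 and 105 reads (slope -0.53 ± 0.18, adjusted p = 0.0318, edgeR). SRSF1-203, a transcript without a defined coding region, had 92, 125, 86, 58 and 52 reads (slope -0.67 ± 0.23, adjusted p = 0.0345, edgeR). All 438 bases of SRSF1-203 lie within coding transcripts of the gene. SRSF11-208 fell with a slope of -1.08 ± 0.37 and an adjusted p of 0.0290 (edgeR). None of these 3 passed without the 75:25 library or without the 0:100 library, SRSF1-203 and SRSF11-208 also not without the 25:75 library, and SRSF1-203 not without the 100:0 library. The slope of SRSF1-201 was -0.26 without the 0:100 library and -0.27 with the length relation removed, where its adjusted p was 0.257 (edgeR). That of SRSF11-208 was -0.64 without the 0:100 and -1.64 without the 100:0 library.

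SRSF6-201, the long MANE transcript of 4353 bases, had 197, 202, 197, 131 and 92 reads and a slope of -0.65 ± 0.19 with an adjusted p of 0.0138 (edgeR). Its part of SRSF6 reads was 87.6%, 86.3%, 83.8%, 81.9% and 73.6%, in order from pure NCI-H1975 to pure HCC827. The shorter coding transcripts SRSF6-204 (1227 bases) and SRSF6-205 (1077 bases), which hold no base outside SRSF6-201 or another coding transcript, went the other way, from 5.33% to 12% and from 3.56% to 11.2%. In DESeq2's Wald test none of these 4 transcripts passed, with adjusted p-values from 0.0710 for SRSF6-201 to 0.191 for SRSF1-203. In usage, SRSF6-205 had a log2 change of 1.40 with an unadjusted p of 0.00893 and an adjusted p of 0.751 (edgeR). SRSF6-201 itself had a usage change of -0.21 with an unadjusted p of 0.322 (edgeR). Mean transcript length over all genes fell in the same direction along the series, and with the length relation removed SRSF6-201 had a slope of -0.45 and an adjusted p of 0.0768 (edgeR). Without the 0:100 library its adjusted p was 0.256, and without the 100:0 library 0.112.

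In transcript usage 0.156% of 26268 transcripts passed over all genes. Of the 58 transcripts of members 0 passed in edgeR or limma-voom, and 5 had in edgeR an unadjusted p under 0.05, against 3.64% of all transcripts. They were SRSF11-208 (log2 change -1.02, adjusted p = 0.681, edgeR), SRSF6-205 and SRSF6-204, the retained-intron SRSF5-212 (13, 11, 9, 4 and 3 reads) and the coding SRSF11-203 (57, 82, 59, 53 and 72 reads). No NMD transcript was among the 5. The poison-exon transcripts SRSF7-204 (44, 65, 52, 40 and 45 reads), TRA2A-211 (33, 43, 31, 25 and 14) and TRA2B-205 (17, 18, 19, 16 and 14) had usage changes of 0.41, -0.11 and 0.27, each with an adjusted p of 1.00 (edgeR).

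Genes that act on or with SR proteins were described from lists. Over all genes 45.8% passed, 23.5% rising and 22.3% falling. Of 4 other SR proteins 2 passed: SRSF12, a little-expressed member, rose with a slope of 2.42 ± 0.74 from 2 reads at 100:0 to 12 at 0:100, and SRSF10, a splicing repressor when dephosphorylated, fell with a slope of -0.50 ± 0.17. Of 7 kinases and import factors 1 passed, SRPK2, a cytoplasmic kinase of the arginine and serine tails, which fell from 63.3 to 35.3 CPM (slope -0.81 ± 0.17, adjusted p = 0.00214, edgeR). TNPO3, the importin that carries SR proteins into the nucleus, went from 91.6 to 77.3 CPM and did not pass. Of 11 SR-related proteins 2 rose, SNRNP70 of the U1 particle (0.43 ± 0.13) and U2AF2, which binds the polypyrimidine tract (0.41 ± 0.13). SRRM2 and SON, the scaffolds of nuclear speckles, had slopes of -0.07 and -0.13 and did not pass. The median slopes of these 3 lists were 0.07, -0.11 and 0.13. Among these calls SRPK2 alone passed whichever library was left out. SRSF10 did not pass without the 0:100 or the 100:0 library, with the length relation removed (slope -0.27, adjusted p = 0.214, edgeR) or in DESeq2's Wald test (adjusted p = 0.0904). SRSF12 did not pass without 100:0 and had too few reads to be tested without 25:75, without 0:100 or with at least 10 reads in every library. U2AF2 did not pass without either pure library, without a filter or in DESeq2's Wald test (adjusted p = 0.0679). SNRNP70 did not pass without 0:100 (slope 0.27) or with the length relation removed (adjusted p = 0.0572, edgeR). With library totals the slopes of SNRNP70 and U2AF2 were 0.02 and 0.0020.

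Of 12 NMD factors, the proteins that read early stops, 3 rose, 1 fell and 8 did not pass, with a median slope of 0.08, where 45.8% of all genes passed. DHX34 (1.51 ± 0.35), a helicase that promotes UPF1 phosphorylation, and SMG5 (1.08 ± 0.14), an adaptor that recruits decay enzymes, rose, as did UPF3B (0.75 ± 0.20), which links UPF2 to the exon junction complex and is named here after its value was seen. UPF2, the bridge between UPF1 and UPF3, stood at 58.0, 51.0, 45.4, 40.5 and 20.5 CPM, in order, with the 0:100 library lowest by the widest step (slope -1.19 ± 0.24, adjusted p = 0.00138, edgeR). UPF1, the central helicase, had a slope of 0.28 ± 0.17 and did not pass. Of 5 exon junction complex genes 2 rose, CASC3 (1.38 ± 0.23) and EIF4A3 (0.75 ± 0.25), and RBM8A did not pass at -0.15 ± 0.13. DHX34, SMG5, UPF2 and CASC3 passed whichever library was left out and with library totals, although the slope of UPF2 was -0.69 without the 0:100 library and that of SMG5 0.67 with library totals. UPF3B did not pass without either pure library (slope 0.45 without 100:0) or with library totals. EIF4A3 did not pass without the 100:0 (slope 0.24) or the 25:75 library or with library totals, and had a slope of 1.16 without the 0:100 library. The part of these genes in the members' transcript types was not tested.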

How the data were processed

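Each of the 5 tables deposited by the authors gives a transcript identifier, a length and an estimated count of reads, with no scaling, as read from the tables. The submitters' processing notes name GRCh38, minimap2 2.24 and Salmon 1.9.0. The annotation release, the use of strand and the division of reads between similar transcripts are not given in the sources used here. The 161 repeated identifiers were summed and 2 values that were not whole were rounded. Of 227751 human transcripts, 224076 matched GENCODE 44 and held 98.6% of human reads. For 110 of the members' 115 transcripts the table length equalled that of GENCODE 44, the exceptions being SRSF2-201, SRSF2-202, SRSF11-201, SRSF11-204 and SRSF11-208.

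Gene sums, transcripts and sums per transcript type were fitted in R 4.3.3 with edgeR 4.0.16 (quasi-likelihood slope on the HCC827 mass fraction, TMM, at least 10 reads in at least 2 libraries, Benjamini-Hochberg adjustment over all features, threshold 0.05), and usage with diffSpliceDGE on the same covariate. Alternatives used DESeq2 1.42.0, limma 3.58.1, other scalings and filters, a fit with the trend of slope on transcript length removed, and each library left out. The gene slope and type usage fits were also run on simulated counts with the same extra scatter for every feature. Those counts did not model the placement of reads between transcripts, so they cannot speak for it here. Shares have Wilson and differences Newcombe 95% intervals. No molecular identifiers were given, so intervals and limits (a count of 0 allows up to 3 reads) cover counting error only. Library totals of 2932250 to 4058751 reads gave the members 722 to 2785 reads each.

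A poison exon is a cassette exon of an NMD transcript that lies within a MANE Select intron and holds the stop codon. That stop is more than 50 bases before the last junction of the transcript. The cassette exon of SRSF2-204, an NMD transcript with 4 reads, does not hold the stop, so it was not counted. Transcripts that cover the stop-bearing exon, also within a longer exon or a kept intron, were counted with it. The members and the gene lists were chosen with earlier results of these data known. Named were all members, the transcript with most reads of each type, transcripts past the usage threshold, and from each list up to 2 genes per direction and up to 2 that did not pass. Further transcripts were named after their values were seen. Protein sequences were not used here.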

Additional observations from a re-analysis of the deposited data

How the results depend on the processing

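Leaving out 1 library at a time gave 4067 to 5860 gene calls (6175 with all libraries), 6290 to 10175 transcript calls (10660), 0 to 6 calls of type usage (8) and 11 to 30 of transcript usage (41). DESeq2's Wald test called 5974 transcripts. Type usage had 3 calls with at least 10 reads in every library and 21 in limma-voom. Transcript usage had 63 calls in limma-voom, 114 with the length relation removed and 67 by gene-level F tests. Members had 0 usage calls under every one of these settings that gives calls per type or transcript.

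Among single members, SRSF2 had a slope of -0.30 with library totals and -0.096 to 0.37 with 1 library left out (lowest without 100:0), and SRSF4 -0.068 with library totals. SRSF11, near 0, had -0.39 with library totals, -0.015 without a filter, -0.041 with at least 10 reads in every library and -0.069 to 0.061 with 1 library left out (lowest without 100:0). TRA2B had 0.011 with the length relation removed. The calls of SRSF1 and TRA2A were lost under the settings given above, and their slopes stayed below 0 under all that were run. Library totals move the median of all genes to -0.44, and relative to that median the slopes of SRSF2, SRSF4 and SRSF11 were 0.14, 0.37 and 0.05.

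The mean share of NMD and retained-intron reads in the members was 23.6%. It was 26.2% over the 3 named types alone and 22.4% over transcripts with at least 10 reads in 2 libraries. Transcripts that cover a poison exon took 14.7%. Over all genes the NMD slope of -0.368 points was -0.248 without the 10 genes with most reads (p = 0.0667) and -0.504 to -0.285 with 1 library left out (p = 0.0833 to 0.167, exact permutation tests; 4 libraries allow few orders). The retained-intron slope of 0.119 ran from -0.108, without the 0:100 library, to 0.246, and the slope of mean length from -415 to -385 bases. The cause of these changes was not tested.

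No paired analysis was possible because each ratio had 1 library. Single types often rest on fewer than 50 reads in a library, and the p-values cover 2 RNA preparations, not cultures.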
